A study of Homo sapiens with 17 samples.

Results

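Chromosomes 4, 13 and 18, the human autosomes poorest in genes, were described window by window in 5 lists of chromatin regions from IMR90 human lung fibroblasts. Each chromosome was divided into consecutive windows of 1 Mb from position 0 of build hg18. Windows within 5 Mb of a chromosome end were left out, the end being the highest region end in any list, and so were the windows of chromosome 13 that lie before its first region. This left 181 windows on chromosome 4, 92 on chromosome 13 and 66 on chromosome 18, together 339 of the 2586 windows that the same rule gave on all 22 autosomes. Cover is the percentage of a window's base pairs that lie under the regions of a list.

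The series profiled chromatin by immunoprecipitation and sequencing (ChIP-seq) in 17 libraries. Proliferating IMR90 cells at population doubling 24 were compared with replicatively senescent cells at doubling 87, which had stopped dividing and were kept in culture for a further 2 weeks. Ras-induced cells at doubling 15 were IMR90 fibroblasts infected with a retrovirus carrying a fusion of the oestrogen receptor and Ras (pLNC-ER:Ras), switched on with 100 nM 4-hydroxytamoxifen. They were compared with control cells at doubling 15, for which the labels do not state whether they carried the construct or received the drug. The lists are lamina-associated domains (LADs), mapped with lamin B1 in proliferating cells, and 4 lists of change. Replicative and Ras-induced H3K4me3 mesas are broad stretches with more H3K4me3 in senescent or Ras-induced cells, H3K27me3 mesas are stretches with more H3K27me3 in replicative senescence, and H3K27me3 canyons are stretches with less. This is how the study uses the words, and the file headers state a direction for the replicative H3K4me3 list alone. The H3K4me3 and lamin B1 groups hold 1 library each.

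As background, LADs are stretches of chromatin that touch the nuclear lamina, the filament mesh under the inner nuclear membrane, and they are usually poor in active genes. H3K4me3, the trimethylation of lysine 4 of histone H3, normally sits in narrow peaks at active promoters, and H3K27me3, the trimethylation of lysine 27, is laid down by Polycomb complexes over silent genes. Whole chromosomes keep preferred positions in the nucleus: in many human cell types gene-poor chromosomes such as 18 lie near the nuclear edge and gene-rich ones such as 19 nearer the centre. Senescent fibroblasts lose much of their lamin B1.

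The lists hold coordinates only. No value per library, read count or depth can be had from them, so no window carries a replicate error, no difference between chromosomes could be tested over samples, and all values are descriptions. SDs are spreads over windows, and neighbouring windows are not independent. The label was checked by counting protein-coding genes in RefSeq (assembly GRCh38.p14, not the build of the regions): chromosome 13 had 2.96 genes per Mb, chromosome 18 had 3.37 and chromosome 4 had 4.05, the 3 lowest values of 22 autosomes, against 24.8 on chromosome 19. Across the 22 autosomes, the Spearman correlation between gene density and mean cover was 0.748 for replicative and 0.644 for Ras-induced H3K4me3 mesas, 0.287 for H3K27me3 mesas, -0.280 for canyons and -0.222 for LADs; chromosomes of the same cells share every library.

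Windows on either side of the 5 Mb limit were as follows. At the start of chromosome 4 the first window kept was 82.2% under replicative H3K4me3 mesas and 6.09% under canyons, and the last one left out was 35.4% and 97.4%. At its far end the last window kept had 76.8% under Ras-induced mesas and the first left out 31%. At the far end of chromosome 13 canyons covered 99.99% inside the limit and 99.97% outside. On chromosome 18 replicative mesas covered 0% inside and 85.5% outside the far limit. The first window of chromosome 13 holds only the start of the first region and was 18% under LADs, with no mesa or canyon.

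All 3 chromosomes carried little replicative H3K4me3 gain, while they parted ways for the other lists. Mean cover by replicative H3K4me3 mesas was 8.89% of a window on chromosome 4, 8.65% on chromosome 13 and 8.97% on chromosome 18, which placed them at ranks 3, 2 and 4 from the lowest of 22 autosomes. Chromosome 21 was lower, at 7.42%. The other 19 autosomes ranged up to 31.9%, and over their 2247 windows the mean was 16.3%, 1.85 times the 8.84% of the 339 windows. The difference was -7.51 percentage points.

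Ras-induced H3K4me3 mesas did not share that uniformity. They covered 10.8% of the average window on chromosome 4, the lowest value of 22 autosomes, 15.3% on chromosome 13 and 23.7% on chromosome 18. Chromosome 18 thus stood at rank 14 from the lowest. Pooled over the 339 windows the mean was 14.5%, against 23.1% on the other 19 autosomes. On a set of gene-dense autosomes (16, 17, 19, 20 and 22), with 281 windows, Ras-induced mesas covered 35.5% and replicative mesas 24.4%. The set leaves out chromosome 11, which had more genes per Mb (9.68) than chromosomes 16, 20 and 22. Its cover was 26.1% and 20.3%.

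H3K27me3 gain was scarce on chromosomes 4 and 13 and near the level of the other autosomes on chromosome 18. H3K27me3 mesas covered 2.67% of the average window on chromosome 4 and 3.09% on chromosome 13, the lowest values of 22 autosomes; the next was 9.12% on chromosome 6. On chromosome 18 they covered 17.4%, close to the 17.2% over the other 19 autosomes and at rank 13 from the lowest. Pooled, the mean was 5.66%, a value that rests on the mixture: without chromosome 18 it was 2.81% and without chromosome 4 it was 9.08%. H3K27me3 loss separated them in another way. Canyons covered 60.5% of chromosome 13, the highest value of 22, 36.3% of chromosome 4 at rank 10 from the highest, and 29.7% of chromosome 18 at rank 15. The pooled canyon mean, 41.6% against 36.3% elsewhere, depends on chromosome 13: without it the difference from the other autosomes was -1.83 points in place of 5.24. LAD cover was 69.9% on chromosome 4, the highest of 22, 61.7% on chromosome 13 and 60.3% on chromosome 18, against 59.8% elsewhere. The next highest was chromosome 19, at 69.1%. With windows at stretches of over 3 Mb without any region left out, the value elsewhere was 61.1%. Chromosomes 4, 13 and 18 have no such stretch, and the ranks of the autosomes for the 5 lists were not taken anew without those windows.

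**Figure D1:**
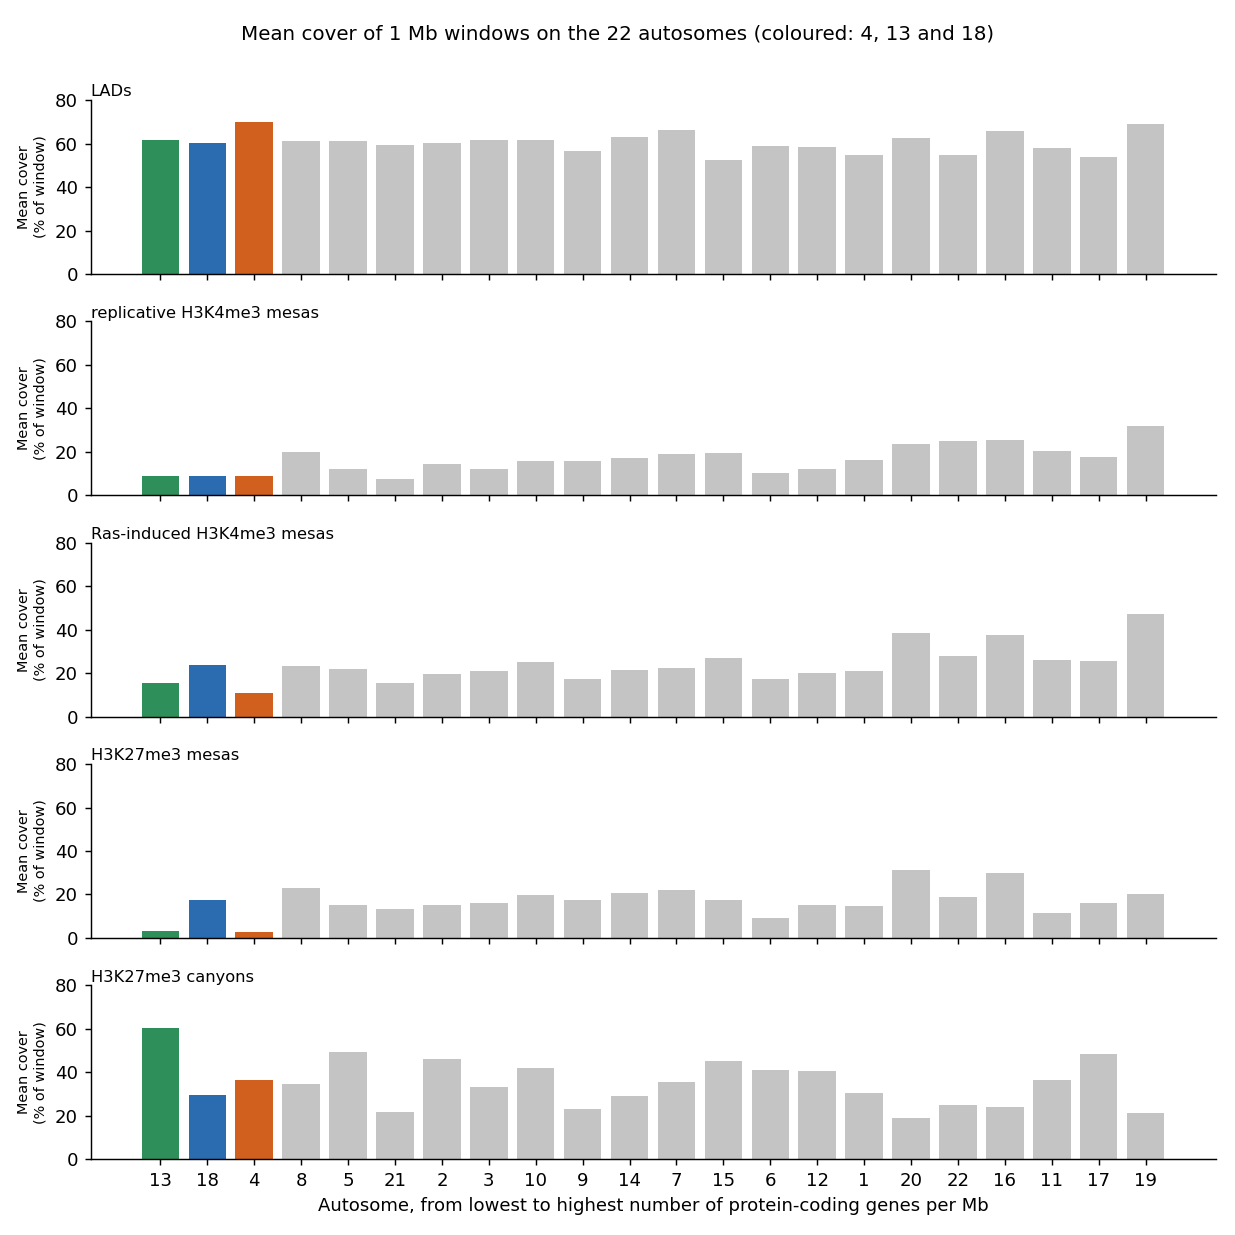
Mean cover of 1 Mb windows (percent of the window, y axis) on each of the 22 autosomes, in 5 panels for the 5 lists; autosomes run from the lowest to the highest number of protein-coding genes per Mb, and chromosomes 4, 13 and 18 are coloured. The 3 coloured bars are nearly level for replicative H3K4me3 mesas (8.65 to 8.97%), while for H3K27me3 mesas chromosomes 4 and 13 are at 2.67 and 3.09% and chromosome 18 is at 17.4%.

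For the mesa lists most windows behind these means were at 0. For replicative mesas the lowest and the median window were at 0% and the highest at 94.9%, with 272 of 339 windows at 0. For Ras-induced mesas the median was also 0, 228 windows were at 0 and the highest was at 100%. H3K27me3 mesas left 254 windows at 0 and filled 3 completely, all on chromosome 18. Canyons were the most divided list, with 142 windows at 0, 89 wholly covered and a median of 17.4%. The SD over windows was 20.8 points for replicative and 25.6 for Ras-induced mesas, 17.02 for H3K27me3 mesas, 44.9 for canyons and 32.03 for LADs.

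Counted as windows with at least 50% of their length covered, 34 of 339 windows were under replicative mesas (10.03%), against 16.6% of all 2586 autosomal windows. For Ras-induced mesas the count was 55 (16.2%), with 23.1% over all autosomes. For H3K27me3 mesas it was 15 (4.42%, background 14.1%), of which 13 lay on chromosome 18 and 1 each on chromosomes 4 and 13. For canyons it was 142 (41.9%, background 36.0%), made up of 66 of 181, 55 of 92 and 21 of 66 windows. For LADs it was 228 (67.3%, background 62.9%). At least 1 of the 3 mesa lists reached 50% in 77 windows (22.7%, background 35.3%), and 170 windows held no mesa at all (50.1%, background 38.2%), 104 of them on chromosome 4.

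H3K27me3 gain on chromosomes 4 and 13 came in small pieces, while chromosome 18 also had large ones. Chromosome 4 held 47 H3K27me3 mesas with a median length of 44.4 kb, and chromosome 13 held 26 with a median of 43.7 kb. None of these reached 1 Mb. Chromosome 18 held 27, with a median of 90.1 kb, and 5 of at least 1 Mb gave 79.02% of its mesa length. Per 100 windows there were 25.97 mesas on chromosome 4, 28.3 on chromosome 13, 40.9 on chromosome 18 and 48.2 on the other 19 autosomes, where the median length was 48.7 kb and regions of 1 Mb and more gave 67.9%.

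The longest H3K27me3 mesa of chromosome 4 lay at 5517401 to 6121899 (0.604 Mb). It was 74.3% under replicative and 64.7% under Ras-induced H3K4me3 mesas. That of chromosome 13, at 39399701 to 40094599 (0.695 Mb), was entirely LAD and entirely under H3K4me3 mesas of both lists. That of chromosome 18, at 46483101 to 49689399 (3.21 Mb), was 95.01% in LADs, 48.4% under Ras-induced and 4.89% under replicative H3K4me3 mesas. It also formed most of the longest run of H3K27me3 mesa windows, 4 Mb from 46000001 to 50000000, at 86.1% cover.

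Loss of H3K27me3 was laid out in multi-megabase blocks. The 142 canyon windows formed 29 runs of neighbouring windows with a mean length of 4.90 Mb, against 3.45 Mb on the other autosomes, and 9 runs of at least 5 Mb held 68.3% of them (elsewhere 57.1%). The mean canyon run was 5.08 Mb on chromosome 4, 5.50 Mb on chromosome 13 and 3.50 Mb on chromosome 18. Runs of at least 5 Mb held 68.2%, 74.5% and 52.4% of their canyon windows. No mesa list had a run of 5 Mb on any of the 3 chromosomes. On the other 19 autosomes replicative mesas had 0 such runs as well, Ras-induced mesas had 11 and H3K27me3 mesas had 15. Mesa windows formed short runs: 39 of 46 Ras-induced runs, 19 of 25 replicative runs and 4 of 8 H3K27me3 runs were a single window. On the other 19 autosomes 223 of 339 Ras-induced, 220 of 292 replicative and 68 of 156 H3K27me3 runs were a single window. On chromosome 18 this was so for 6 of 11 Ras-induced, 2 of 4 replicative and 2 of 6 H3K27me3 runs. The Spearman correlation between neighbouring windows was 0.776 for canyons, 0.419 for replicative mesas, 0.402 for LADs, 0.393 for Ras-induced mesas and 0.189 for H3K27me3 mesas over 336 pairs. At a distance of 5 Mb these values were 0.161, 0.0220, -0.0668, 0.187 and 0.0875.

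Chromosome 13 held the longest of these blocks. From 60000001 to 77000000, 17 consecutive windows were 99.3% canyon, and from 79000001 to 95000000 a further 16 were 100% canyon. Both blocks lay partly in LADs, to 59.2% and 78.2%. Neither met a replicative H3K4me3 mesa or an H3K27me3 mesa, while Ras-induced mesas covered 10.2% and 8.18% of them. The second block is made by 1 canyon, at 78938801 to 95015699 (16.1 Mb). Canyons of at least 1 Mb gave 89.7% of canyon length on chromosome 13 and 87.3% on chromosome 4, against 71.5% on chromosome 18 and 79.3% on the other 19 autosomes.

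On chromosome 4 canyon blocks of 14 Mb lay at 101000001 to 115000000 (96.4% canyon, 78.4% LAD) and at 140000001 to 154000000 (93.3% canyon, 54.9% LAD). The first held no replicative H3K4me3 mesa and no H3K27me3 mesa. Its longest canyon, at 100703601 to 109313499 (8.61 Mb), was 84.5% LAD. On chromosome 18 the longest block was 6 Mb, at 54000001 to 60000000. It was 96.3% canyon and 48.5% LAD, and 28.2% of it lay under Ras-induced mesas.

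**Figure D2:**
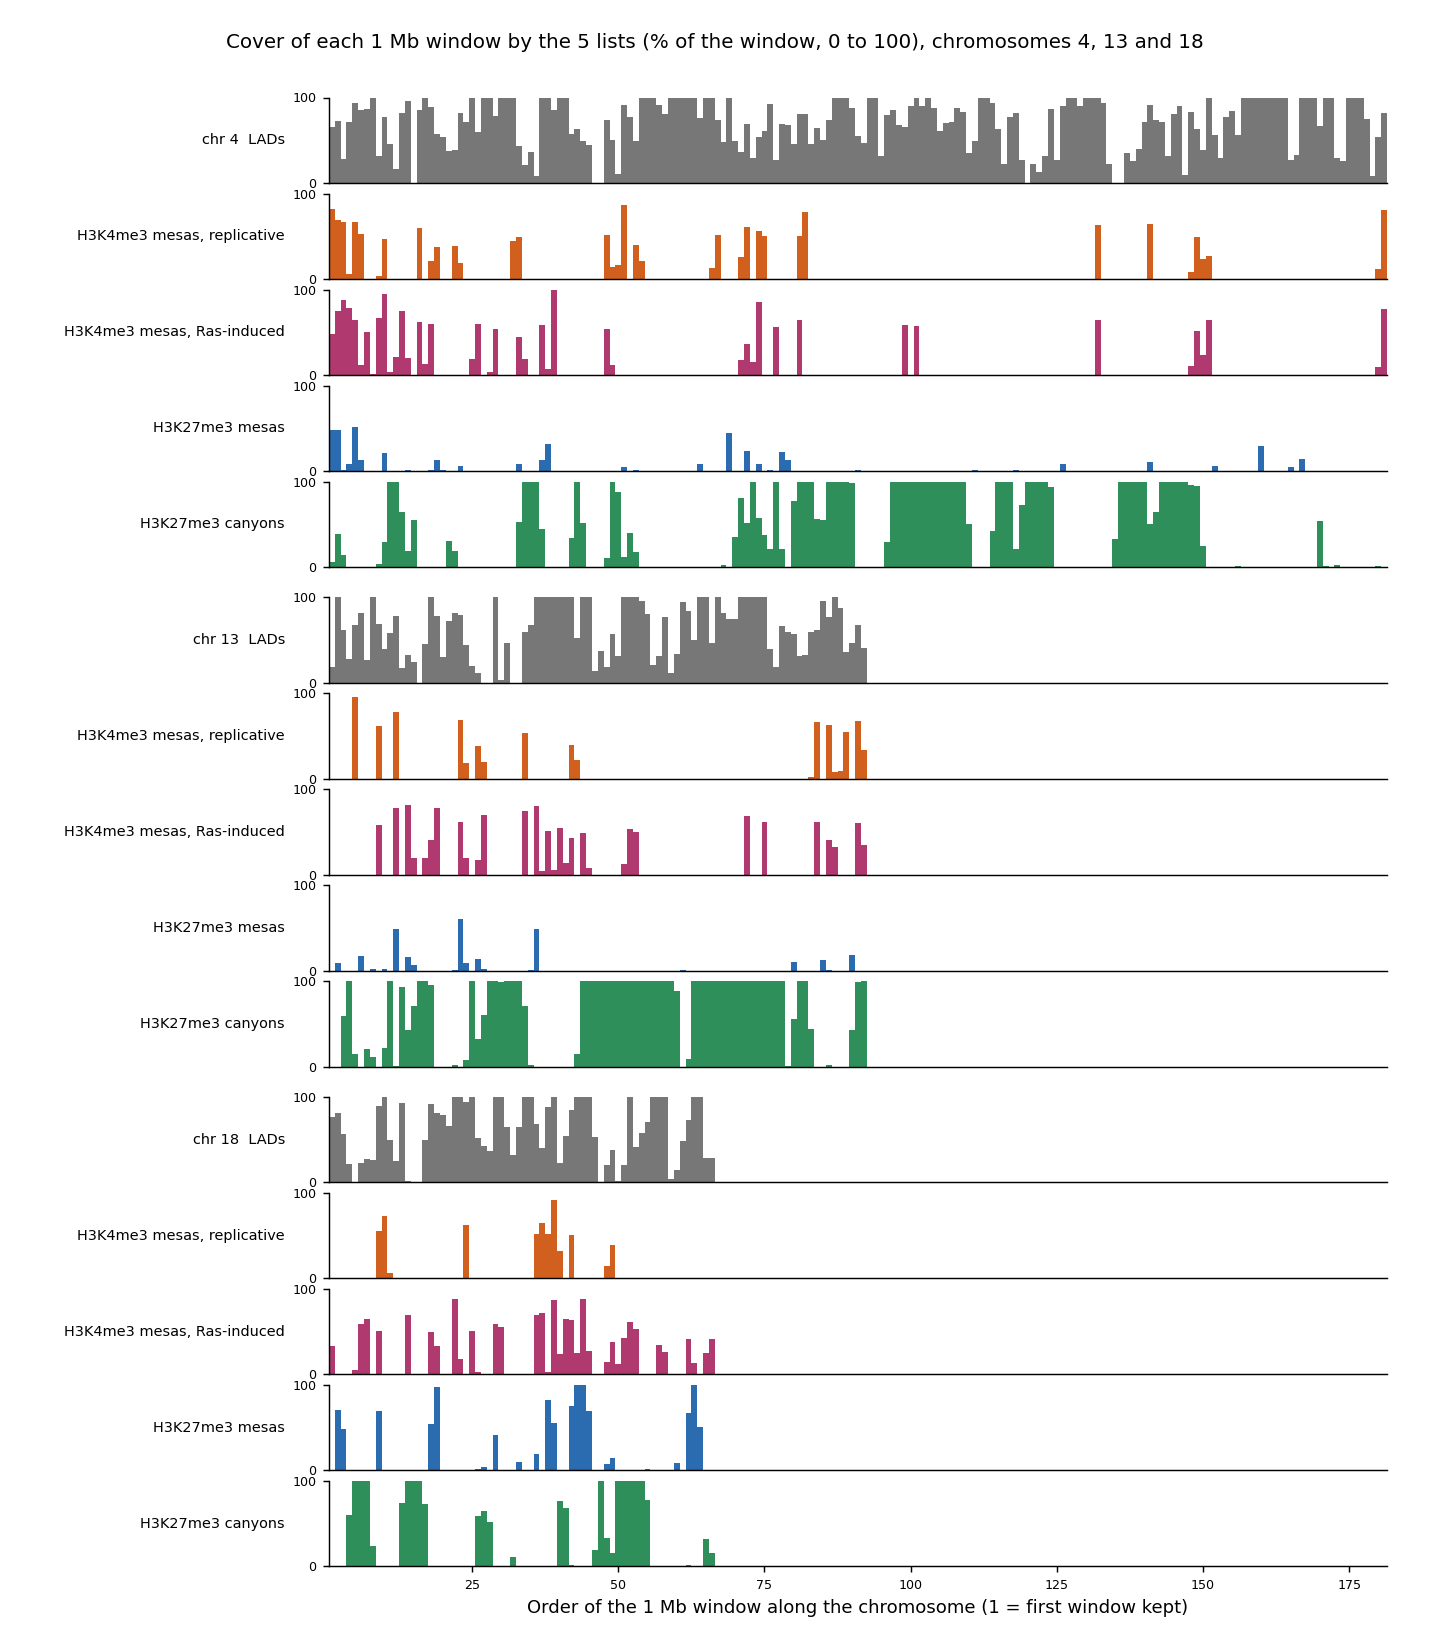
Cover of each 1 Mb window (percent of the window, y axis from 0 to 100 in every row) by the 5 lists along chromosomes 4, 13 and 18; the x axis is the order of the window from the first one kept, and each bar is 1 window. Canyons form wide solid blocks, up to 17 windows on chromosome 13, while mesa windows form shorter groups of at most 4, and H3K27me3 mesas fill whole windows on chromosome 18 alone.

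Pooled over the 3 chromosomes, H3K4me3 mesas were fewer and shorter than elsewhere, with chromosome 18 an exception for the number of Ras-induced mesas. The windows met 46 replicative mesas, 13.6 per 100 windows, with a median length of 618 kb; on the other 19 autosomes there were 21.3 per 100 windows with a median of 702 kb. For Ras-induced mesas the figures were 71 mesas, 20.9 per 100 windows and 627 kb, against 26.7 and 752 kb. Mesas of at least 1 Mb gave 9.95% of replicative and 16.9% of Ras-induced mesa length, against 27.2% and 42.7% elsewhere. The shortest were 503 kb and 508 kb long, so that any narrower gain of H3K4me3 is outside these lists. By number per 100 windows, chromosome 18 had 34.8 Ras-induced mesas, chromosome 13 had 22.8 and chromosome 4 had 14.9.

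The longest replicative mesa of chromosome 4, at 54835001 to 55864999 (1.03 Mb), was 94.7% in LADs and met no Ras-induced mesa. That of chromosome 18, at 14276001 to 15068999 (0.793 Mb), lay wholly in LADs and met none either. That of chromosome 13, at 107330001 to 108331999 (1.00 Mb), was 78.5% under Ras-induced mesas and 99.9% under a canyon, so that gain of H3K4me3 and loss of H3K27me3 coincided there. The longest Ras-induced mesa was on chromosome 4 at 7123001 to 8782999 (1.66 Mb), 40% under replicative mesas. On chromosome 18 it was at 40309001 to 41718999 (1.41 Mb), 82.6% under replicative mesas, and on chromosome 13 at 30183001 to 31193999 (1.01 Mb), with no replicative mesa.

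Replicative mesas met Ras-induced mesas more often than the reverse. Of the base pairs under replicative mesas, 53.7% lay under Ras-induced mesas (46.6% on chromosome 4, 60.6% on chromosome 13, 63.98% on chromosome 18), against 57.5% on the other 19 autosomes. Of the base pairs under Ras-induced mesas, 32.7% lay under replicative mesas, against 40.7%. On chromosome 18 this share was 24.2%, beside a mean window cover of 23.7% by Ras-induced and 8.97% by replicative mesas. By number, 28 of 46 replicative mesas (60.9%) were at least 50% under Ras-induced mesas, against 58.04% on the other 19 autosomes. There were 16 that met none (34.8%, elsewhere 33.8%). Of 71 Ras-induced mesas, 23 (32.4%) were at least 50% under replicative mesas, against 42.5% elsewhere. Another 42 met none (59.2%, elsewhere 47%), 17 of these among the 23 of chromosome 18. Over the 339 windows Ras-induced mesas covered 14.5% and replicative mesas 8.84%.

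Pooled over the 3 chromosomes, mesas covered less than elsewhere both inside and outside LADs, with chromosome 18 as an exception for Ras-induced mesas and, inside LADs, for H3K27me3 mesas. Of LAD base pairs in the windows, 20.1% on chromosome 4 and 26.5% on chromosome 13 lay under any of the 3 mesa lists, the lowest values of 22 autosomes, against 49.3% on chromosome 18 and 49.4% on the other 19. H3K27me3 mesas covered 3.40% of LAD base pairs on chromosome 4, 4.72% on chromosome 13 and 27.5% on chromosome 18, against 26.5%. Replicative H3K4me3 mesas covered 11.6%, 11.6% and 13.1%, against 24.4%. Ras-induced mesas covered 11.97%, 21.02% and 30.6%, against 29.9%. Outside LADs the same comparison gave 3.02% against 4.29% for replicative, 8.64% against 13.01% for Ras-induced and 1.07% against 3.31% for H3K27me3 mesas. On chromosome 18 alone, Ras-induced mesas covered 13.3% outside LADs.

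LADs took up 65.8% of the windows here and 59.8% elsewhere, and the share of mesa length in LADs was above that for each mesa list. Of mesa base pairs, 88.3% of replicative, 79.6% of Ras-induced and 93.5% of H3K27me3 mesas lay in LADs, and on the other 19 autosomes 89.4%, 77.4% and 92.3%. Of canyon base pairs, 54.99% on chromosome 4 and 54.6% on chromosome 13 lay in LADs, against 28.3% on chromosome 18 and 38.9% on the other 19. On each of the 3 chromosomes this was below the LAD share of the windows, 69.9% on chromosome 4, 61.7% on chromosome 13 and 60.3% on chromosome 18. The only autosome above chromosomes 4 and 13 was chromosome 19, at 74.8%. Seen from the LADs, canyons covered 53.6% of LAD base pairs on chromosome 13, the highest value of 22, 28.5% on chromosome 4 and 13.9% on chromosome 18, against 23.6%.

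The longest single LADs were 8.70 Mb on chromosome 4 (160570001 to 169270000), 7.82 Mb on chromosome 13 (51330001 to 59150000) and 3.69 Mb on chromosome 18 (46840001 to 50530000). The first met no H3K4me3 mesa, while Ras-induced mesas covered 32.3% of the second and 37.99% of the last. Windows of like LAD cover were set side by side. Windows that lay wholly in LADs numbered 97 here and 495 on the other 19 autosomes. In them, mean cover by replicative H3K4me3 mesas was 3.93% (SD over windows 14.8), against 24.2% (SD 34.2). By chromosome it was 3.12% over 54 windows of chromosome 4, 1.93% over 25 of chromosome 13 and 9.11% over 18 of chromosome 18. These were at ranks 2, 1 and 4 from the lowest of 22 autosomes. H3K27me3 mesa cover in such windows was 2.49% and 2.42% on chromosomes 4 and 13 and 28.7% on chromosome 18, against 36.9%.

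Ras-induced mesas and canyons in wholly LAD windows separated the chromosomes further. Ras-induced mesas covered 5.35% of these windows on chromosome 4, 25.2% on chromosome 13 and 35.2% on chromosome 18, against 31.996%. Canyons covered 60.3% of them on chromosome 13, against 10.1% on chromosome 4, 5.61% on chromosome 18 and 10.7% elsewhere, and 39.5% on the highest of the other 19. On chromosome 13, 14 of 25 wholly LAD windows were wholly canyon; over the 339 windows 20 were wholly both (5.90%, background 2.40%). The first of these along chromosome 13 were at 45000001 to 46000000 and at 60000001 to 61000000, and the one on chromosome 18 was at 56000001 to 57000000. At the other extreme, in windows with under 20% LAD, canyon cover was 74.6% over 33 windows against 59.7% over 426. Mesa cover there was 2.26% replicative, 5.94% Ras-induced and 0.730% H3K27me3, against 3.20%, 11.5% and 1.02%. The 426 windows include those inside stretches of over 3 Mb without a region of any list, which are at 0 for every list. Chromosomes 4, 13 and 18 have no such stretch. With windows at such stretches left out, canyon cover over all windows elsewhere went from 36.3% to 37.2%. The class under 20% LAD was not compared in that way.

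**Figure D3:**
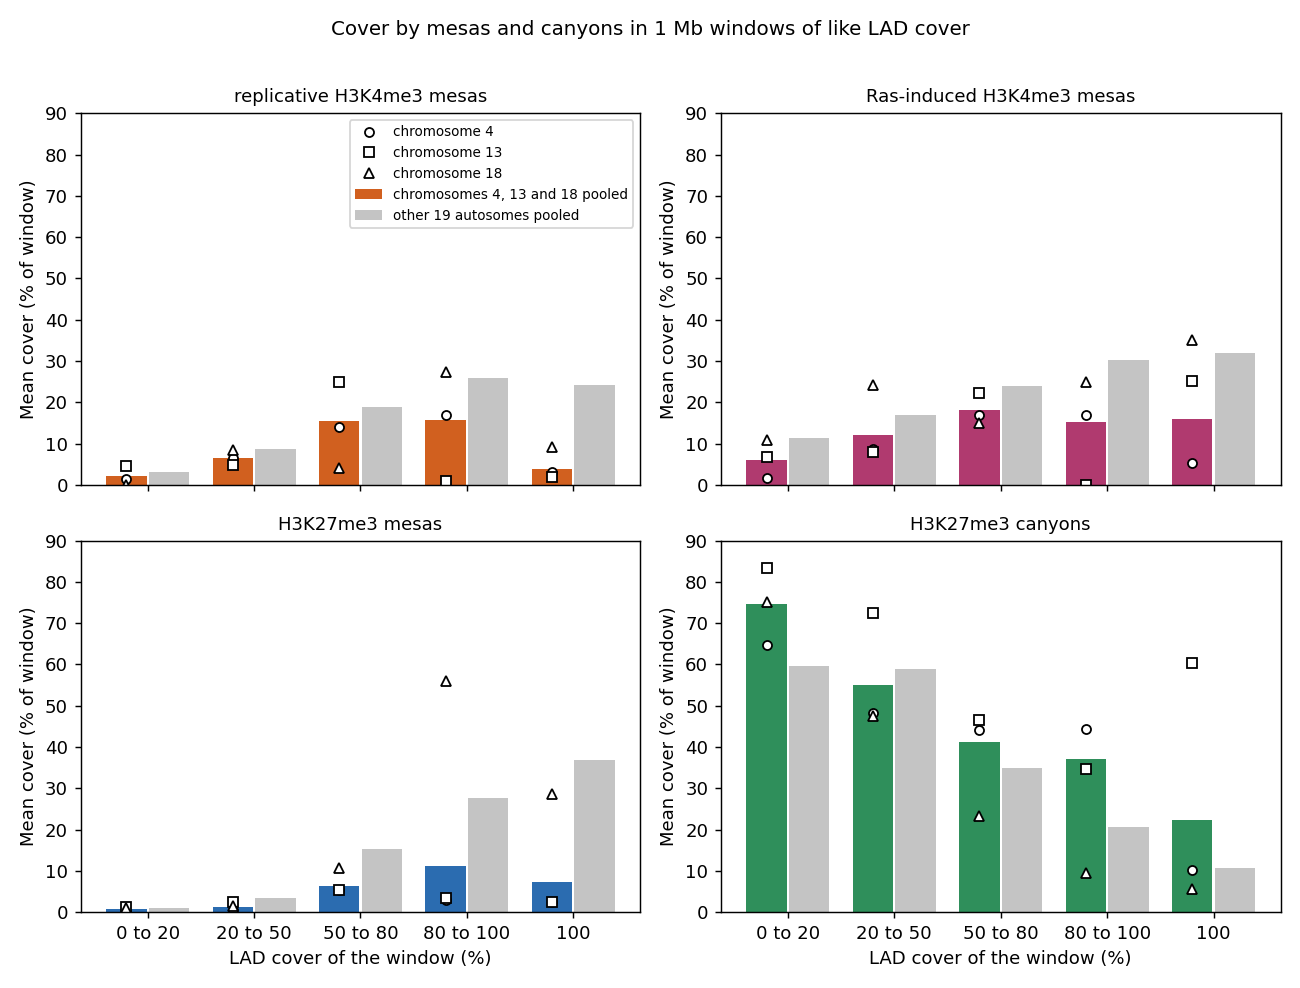
Mean cover (percent of the window, y axis) by each list of change in windows grouped by LAD cover (x axis, percent); coloured bars pool chromosomes 4, 13 and 18, grey bars pool the other 19 autosomes, and open symbols give each chromosome. In wholly LAD windows replicative H3K4me3 mesa cover is 3.93% against 24.2%, and the canyon symbol of chromosome 13 stands at 60.3%.

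Co-variation of the lists across windows was measured by the Spearman correlation, with ties because many windows are at 0; all values are descriptions over 339 windows here and 2247 elsewhere, and neighbouring windows share regions. Replicative and H3K27me3 mesa cover had little rank relation to LAD cover. The correlation between LAD cover and replicative mesa cover was -0.0208, against 0.274 on the other autosomes, and within chromosomes it was -0.0577 on chromosome 4, -0.0297 on chromosome 13 and 0.0738 on chromosome 18. All of the other 19 autosomes were above 0, from 0.0484 to 0.684. Some windows of those autosomes lie inside stretches of over 3 Mb without a region, at 0 in every list. Chromosomes 4, 13 and 18 have no such stretch. For no pair of lists were the correlations elsewhere computed without those windows. Between LAD and H3K27me3 mesa cover the correlation was 0.0726 against 0.393: 0.0160 on chromosome 4 and 0.0101 on chromosome 13, below the lowest of the other 19 (0.110), and 0.323 on chromosome 18. Between LAD and Ras-induced mesa cover it was -0.0250, 0.316 and 0.205, with a median of 0.186 elsewhere. The near-zero values do not say that mesas lie outside LADs, since 31 of 34 replicative and 15 of 15 H3K27me3 mesa windows had at least 50% LAD cover, as had 228 of all 339 windows (67.3%). The relation was not monotonic: mean replicative mesa cover was 2.26% in windows with under 20% LAD, 15.5% at 50 to 80% LAD and 3.93% in wholly LAD windows. The sign of the pooled value for replicative mesas changed with the window grid (correlation 0.0606 with windows of 0.5 Mb), and that for H3K27me3 mesas was -0.0418 with windows of 2 Mb.

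The rank correlation of canyon and LAD cover was negative on each chromosome, to a varying degree. The correlation was -0.645 on chromosome 18, -0.423 on chromosome 4 and -0.139 on chromosome 13, where 1 other autosome was nearer to 0. The median elsewhere was -0.514. On chromosome 13 the class means were not monotonic. Mean canyon cover there was 83.5% in windows with under 20% LAD, 34.6% at 80 to 100% LAD and 60.3% in wholly LAD windows. These classes held 13, 9 and 25 windows, with SDs over windows of 32.4, 49.1 and 49.3 points, so the middle value rests on few windows. Replicative and Ras-induced mesas, which come from different cells, went together with a correlation of 0.414 here and 0.432 elsewhere, from 0.214 on chromosome 18, the lowest of 22, to 0.509 on chromosome 4. Replicative H3K4me3 and H3K27me3 mesas had a correlation of 0.238 against 0.374, and Ras-induced H3K4me3 and H3K27me3 mesas 0.264 against 0.404. Both replicative lists compare the same states of the cells, and whether they share H3 libraries is not given in the sources used here.

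Canyon and H3K4me3 mesa cover ran opposite on chromosome 13 and showed almost no relation on chromosome 4. Between canyon and replicative mesa cover the correlation was -0.400 on chromosome 13, -0.214 on chromosome 18 and -0.0165 on chromosome 4, with a median of -0.231 elsewhere. Between canyon and Ras-induced mesa cover it was -0.283, 0.0236 and 0.0208, with a median of -0.141. H3K27me3 mesas and canyons are opposite calls of the same comparison and share no base pair in the 339 windows (0.00960 Mb on the other 19 autosomes), so their correlation of -0.286 (-0.450 elsewhere) is no finding.

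**Figure D4:**
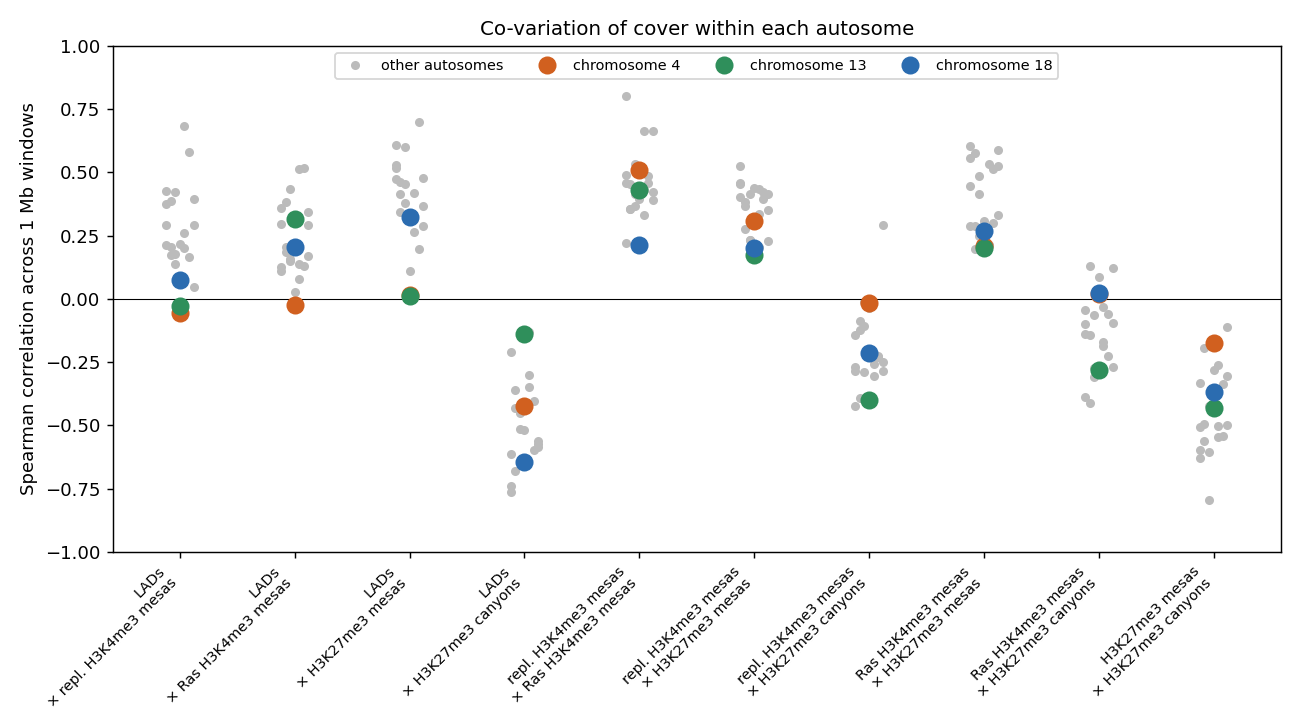
The Spearman correlation between the cover by pairs of lists across 1 Mb windows (y axis, from -1 to 1) within each autosome; each of the 10 positions on the x axis is 1 pair, grey points are the other 19 autosomes and coloured points are chromosomes 4, 13 and 18. For LADs with replicative H3K4me3 mesas the 3 coloured points lie between -0.0577 and 0.0738, and for LADs with H3K27me3 mesas those of chromosomes 4 and 13 coincide at 0.0160 and 0.0101.

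Taken as combinations of lists that cover at least 50% of a window, the commonest state of the pooled windows was LAD alone, with no change list at that level. It held 104 of 339 windows (30.7%), against 22.3% on the other 19 autosomes. Chromosome 4 gave 72 of them, 39.8% of its windows, chromosome 13 gave 18 and chromosome 18 gave 14. On chromosome 13 canyon alone (25 windows) and LAD with canyon (24) were ahead of it. Canyon alone held 62 windows (18.3%, elsewhere 18.9%) and LAD with canyon 58 (17.1%, elsewhere 9.12%). Counting every window with at least 50% under canyons and under LADs, whatever else it held, gave 74 (21.8%, background 13.8%), of which chromosome 4 had 39, chromosome 13 had 29 and chromosome 18 had 6. On chromosome 18 the LAD and H3K27me3 mesa state, with no H3K4me3 list at that level, held 8 of 66 windows (12.1%, background 4.45%). On chromosomes 4 and 13 it held none.

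Of the 3, chromosome 4 had the most windows without any listed change. No mesa or canyon at all was found in 51 of its 181 windows (28.2%), in 3 of 92 on chromosome 13 and in 8 of 66 on chromosome 18, together 18.3% of the 339 windows with a background of 13% over all autosomes. Only chromosome 21 had a larger share than chromosome 4, at 43.8%. These windows of chromosome 4 had a mean LAD cover of 81.1%. The longest such run, 9 Mb from 59000001 to 68000000, was 96.9% LAD, and a second, 5 Mb from 131000001 to 136000000, was 98% LAD. The windows from 50000001 to 52000000 held no region of any list, LADs included, and how much of any window could be sequenced or aligned is not given in the files. Stretches of over 3 Mb without a region of any list numbered 0 on chromosomes 4, 13 and 18. The other autosomes have such stretches, and their windows are part of the background of windows without a mesa or canyon. In base pairs, 55.4% of the LAD length of chromosome 4 was free of any mesa or canyon, against 29.1% on chromosome 13, 40.8% on chromosome 18 and 33.2% elsewhere.

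Windows in which all 3 mesa lists covered at least 50% numbered 5 of 339 (1.47%, background 4.14%). The fullest was on chromosome 18 at 43000001 to 44000000, wholly in LADs, with 91.5% under replicative, 87.2% under Ras-induced and 55.7% under H3K27me3 mesas. The others on chromosome 18 were at 13000001 to 14000000, with 55%, 50.9% and 69.4%, and at 46000001 to 47000000, with 50.9%, 63.3% and 75.6%. Chromosome 4 had 1, at 9000001 to 10000000, with 66.5%, 65% and 52.1%. Chromosome 13 also had 1, at 39000001 to 40000000, with 68.1%, 61.4% and 60.03%. By summed cover of the 3 mesa lists, the windows after the fullest were not among these 5, since H3K27me3 mesas covered 48.8% at 28000001 to 29000000 on chromosome 13 and 48.6% at 6000001 to 7000000 on chromosome 4, just under 50%. Base pairs under all 3 mesa lists came to 4.56 Mb, 1.35% of the windows, against 4.57% on the other 19 autosomes.

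With both ends of a chromosome pooled, several lists went with distance from the nearer end on chromosomes 4 and 13. On chromosome 4, Ras-induced mesas covered 26.1% of windows less than 20 Mb from the nearer end, 12.1% at 20 to 40 Mb and 6.19% farther in; replicative mesas 16.2%, 9.52% and 6.69%; and canyons 16.3%, 15.5% and 49.1%. The ends of chromosome 4 were unlike, however. From 5000001 to 51000000 Ras-induced mesas covered 26.03% and replicative mesas 14.5%, and from 141000001 to 186000000 they covered 5.25% and 5.89%. Neither list met the stretch from 171000001 to 177000000, while the last window kept was 76.8% and 80.8% under them. On chromosome 13, measured from the first region or the far end, the same distances held 36, 40 and 16 windows. Canyons there went from 41.1% over 66.9% to 88.4% and replicative mesas from 14.9% over 4.93% to 3.87%. Of the 16 innermost windows, the 14 with at least 50% canyon all lay in the canyon block from 60000001 to 77000000. Ras-induced mesas on chromosome 13 varied little, at 16.8%, 14.6% and 13.5%. LAD cover stayed between 68.8 and 72.9% on chromosome 4 and between 56.8 and 64.9% on chromosome 13. Chromosome 18 has no window 40 Mb from an end; there replicative mesas covered 4.48% under 20 Mb and 12.7% at 20 to 40 Mb, and canyons 36.2% and 24.3%. On the other 19 autosomes Ras-induced cover was 34.6%, 24.98% and 15.3%, replicative cover 22.4%, 15.7% and 13.3%, and canyon cover 29.6%, 42.7% and 36.2%. At each distance Ras-induced and replicative cover was lower on chromosome 4 than on those autosomes.

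The windows kept on each chromosome were also divided in order into 4 stretches of like number, a division chosen after the values were seen. The ends of a chromosome were unlike. On chromosome 4 the first stretch (5000001 to 51000000) had 26.03% under Ras-induced mesas, and the others 7.55%, 4.02% and 5.25%. Replicative mesas covered 14.5%, 13.7%, 1.40% and 5.89%. The second stretch thus had more replicative than Ras-induced cover, and the first the reverse. On chromosome 13 the third stretch (63000001 to 86000000) was 91.2% canyon, with no replicative mesa and 5.07% under Ras-induced mesas. On chromosome 18 the third stretch (39000001 to 55000000) was the richest in all 3 mesa lists, at 24.7% replicative, 36.7% Ras-induced and 32.8% H3K27me3 cover, and held the longest run of replicative mesa windows, 4 Mb from 40000001 to 44000000. The fourth stretch held no replicative mesa, with Ras-induced mesas at 21.1%.

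**Figure D5:**
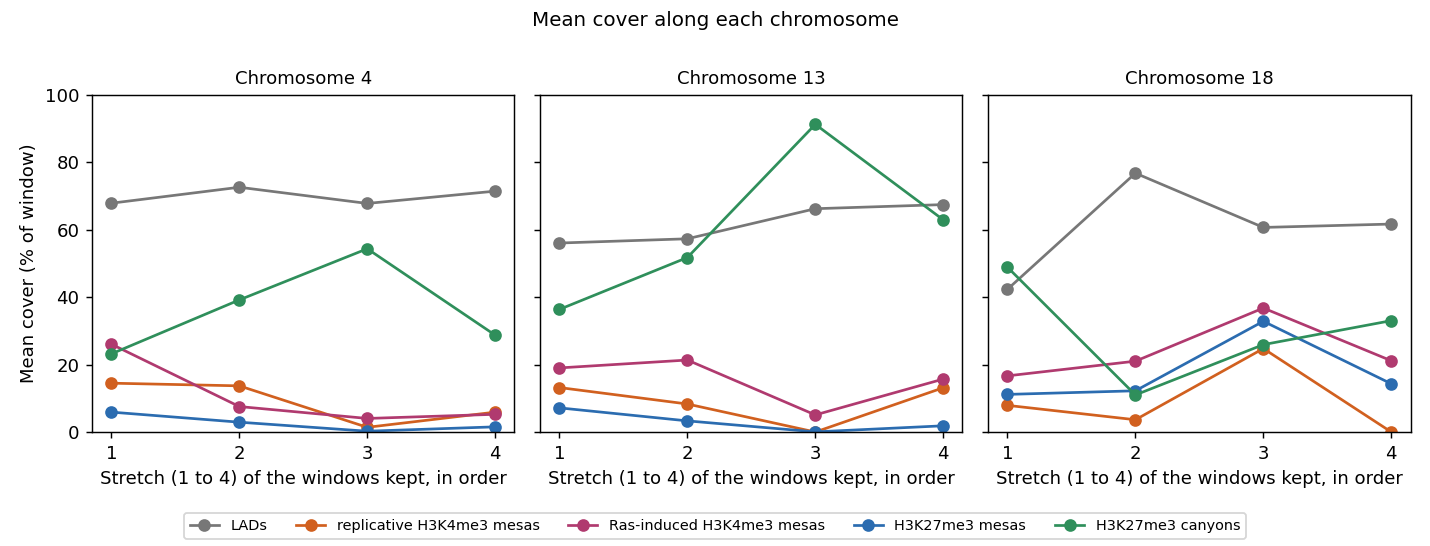
Mean cover (percent of the window, y axis) by each list in the 4 stretches of the windows kept, in order along chromosomes 4, 13 and 18 (x axis); each line is 1 list. Canyon cover peaks in the third stretch of chromosome 13 at 91.2%, where replicative H3K4me3 mesas are at 0, and all 3 mesa lists peak in the third stretch of chromosome 18.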

How the data were processed

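The deposited files are 5 lists of regions made by the authors, 1 region per line, whose values are start and end coordinates in base pairs; the score column of the LAD list deposited by the authors is 0 in every line and was not used. Reads were aligned with Bowtie 0.12.5 to hg18, per the submitters' processing notes. How regions were called, with which thresholds and H3 background, and whether replicates were pooled is not given in the sources used here. The library depth is unknown. Samples were grouped by their titles; since no list holds values per sample, no sample enters singly and no test was run. The 339 windows and the lists were chosen with earlier results of these data known. Regions that touch or overlap within a list were merged before cover was computed, as end minus start, in Python 3.11.15 with numpy 2.4.6, pandas 2.3.3 and matplotlib 3.10.9. The cover code gave no wrong value in 600 simulated comparisons with a base-by-base count. Starts are printed 1-based, and wholly covered means at least 99.99%. Named regions are, for each list and chromosome, the longest region and the longest run of windows with at least 50% cover, all windows with at least 50% under each of the 3 mesa lists, and the longest runs without a mesa or canyon; the text gives a part of them, and the other runs of at least 5 windows that it names were chosen after the values were seen. Alternatives were other window lengths, starts, end limits and cover thresholds, removal of empty stretches and of short regions, omission of each chromosome, medians, other sets of autosomes for comparison and Pearson r. No gene is named, because no annotation of hg18 was used here.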

Additional observations from a re-analysis of the deposited data

How the results depend on the processing

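Of 300 alternative values for 25 results, 262 stayed within the limits set for them: a 95% binomial (Wilson) interval over windows for a mean cover or a difference, a factor of 1.5 for a share of windows, and 1 SD over the 3 chromosomes for a Spearman correlation. These limits describe windows, not cultures. Some alternatives could not, or could hardly, move a value and count among those that stayed. The 3 chromosomes held 0 stretches of over 3 Mb without a region, so removal of such stretches left their means, shares and correlations unchanged. LADs and both H3K4me3 lists held 0 regions under 50 kb, so removal of short regions left these lists as they were. Windows of other lengths or starts average nearly the same base pairs, so mean cover and its difference could hardly move. Mean LAD cover, 65.8% in the main setting, was 65.9% with 0.5 Mb windows, 65.7% with 2 Mb windows and 65.98% with windows starting at 500000. Medians over windows were 73% for LADs, 17.4% for canyons and 0 for the 3 mesa lists, whose differences from the other autosomes were then 0 too. Without chromosome 4, mean cover was 18.8% for Ras-induced and 9.08% for H3K27me3 mesas and 47.6% for canyons, the differences from the other autosomes were -8.12 points for H3K27me3 mesas and 11.3 for canyons, and the share of H3K27me3 mesa windows was 8.86%. Without chromosome 18, H3K27me3 mesa cover was 2.81%, its difference -14.4 points and its share of windows 0.733%. Without chromosome 13, canyon cover was 34.5% and its difference turned to -1.83 points. With 2 Mb windows the shares with at least 50% cover were 2.98% for replicative and 6.55% for Ras-induced mesas. At a threshold of 75% they were 2.06%, 4.13% and, for H3K27me3 mesas, 1.77%, and at 25% 7.08% for H3K27me3 mesas. The correlation of LADs with replicative mesas turned positive with 0.5 Mb windows (0.0606), windows starting at 500000 (0.0345), without chromosome 4 (0.0165) and by Pearson r (0.0633), and was -0.238 in windows with at least 50% LAD. The correlation of LADs with H3K27me3 mesas turned to -0.0418 with 2 Mb windows and -0.160 in windows with at least 50% LAD. The correlation of Ras-induced with H3K27me3 mesas was 0.219 with 0.5 Mb windows, 0.222 with windows starting at 500000 and 0.205 without chromosome 18. The correlation of replicative with H3K27me3 mesas was 0.314 with windows starting at 500000, the correlation of Ras-induced mesas with canyons turned to 0.00260 without chromosome 13, and the correlation of H3K27me3 mesas with canyons was -0.432 without chromosome 4. The cause of these shifts was not tested. No paired analysis was possible because the lists hold no values per sample, and no replicate could be left out for the same reason.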
